A study of Mus musculus with 35 samples.

Results

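The genes described here are the lysine methyltransferases and demethylases of the mouse, with the Smyd family and the core subunits of the Polycomb repressive complex PRC2. They were taken by symbol from a list of 52 genes, and all 52 were found among the 55413 genes of the count table. Of these, 51 passed the filter on low counts, against 15297 of all genes. Kdm8, which had 0 to 9 counts in each mouse, did not pass, and its level averaged 0.476 ± 0.284 CPM (counts normalised to the depth of each library) in Smyd3-ASO livers, 0.213 ± 0.129 in control-ASO livers, 0.547 ± 0.202 in P133 livers and 0.732 ± 0.238 in untreated livers (SD, n = 6, 6, 4 and 5).

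The livers came from 21 C57Bl6 mice, and libraries were made from the polyadenylated 3' ends of transcripts. Smyd3-ASO livers (n = 6) and control-ASO livers (n = 6) came from mice given diethylnitrosamine (DEN, a carcinogen that mutates hepatocyte DNA) at 25 mg/kg on day 14 after birth. From day 133 these mice received, at 50 mg/kg, either an ASO directed at Smyd3 or a control ASO (an antisense oligonucleotide, made to bind a chosen RNA), and they were harvested at day 260. P133 livers (n = 4) had the same DEN dose and no ASO, and were harvested at day 133. Untreated livers (n = 5) had neither agent and were harvested at day 260. The labels call every DEN sample a DEN-induced tumour of hepatocellular carcinoma and the untreated samples normal liver. DEN is thus common to the 3 groups other than the untreated one, and untreated livers of day 133 or livers with an ASO and no DEN were not analysed here. Where either ASO group is compared with untreated livers, DEN and the ASO injection cannot be told apart. Where P133 livers are compared with untreated livers, DEN and age cannot be told apart. Where control-ASO or Smyd3-ASO livers are compared with P133 livers, age and the ASO cannot.

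Lysine methyltransferases (writers) transfer methyl groups from S-adenosylmethionine to lysine side chains of histones and of other proteins, most of them through a SET domain. Demethylases (erasers) remove them, either with a flavin-dependent oxidase domain (the LSD enzymes) or with a JmjC domain that uses iron and 2-oxoglutarate. Methylation of H3K4, H3K36 and H3K79 marks active chromatin, while methylation of H3K9 and H3K27 and trimethylation of H4K20 are found mainly on silent chromatin. In liver tumours of mouse and human, several of these genes are mutated or overexpressed, and Smyd3 is among those studied for it.

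Total counts per mouse were 6358080 to 20258619 in Smyd3-ASO, 6789715 to 13805881 in control-ASO, 4556484 to 6447397 in P133 and 10186780 to 13116012 in untreated livers. The authors merged 1 to 3 libraries for each Smyd3-ASO mouse and 2 for each control-ASO mouse, against 1 for each of the others, so the number of libraries and ASO treatment cannot be told apart. The 11 hepatocyte markers analysed summed to between 25500 and 55200 CPM in Smyd3-ASO, 65700 and 97500 in control-ASO, 52000 and 55600 in P133 and 107000 and 171000 in untreated livers. The 15 immune markers summed to between 138 and 198 CPM in Smyd3-ASO livers, against 59.0 to 122 in control-ASO livers, 108 to 142 in P133 and 82.6 to 146 in untreated livers. The 7 bile duct markers summed to 43.5 to 73.1 CPM in Smyd3-ASO, 108 to 228 in control-ASO, 22.6 to 50.5 in P133 and 14.8 to 30.9 in untreated livers, so that control-ASO mice were above all others and both ASO groups above untreated mice. The 5 erythroid markers summed to 623 to 1610 CPM in Smyd3-ASO, 2030 to 5510 in control-ASO, 1640 to 2310 in P133 and 3560 to 8480 in untreated livers, and Smyd3-ASO mice were below all others. Sums of Kupffer cell, endothelial and stellate cell markers overlapped between the ASO groups. The hepatocyte, immune, bile duct and erythroid sums thus differ between the ASO groups without overlap, and their part in the member changes below was not tested. Not all markers of a list moved as its sum did. In Smyd3-ASO over control-ASO livers, 1 of 4 bile duct markers tested rose and 2 fell, and 1 of 5 erythroid markers rose and 3 fell. Of 11 hepatocyte markers 0 rose and 5 fell, and of 9 immune markers tested 3 rose and 0 fell. Of all genes, 13.3% rose and 12.9% fell there. In these bulk samples fewer cells of a type and less RNA per cell cannot be told apart.

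In control-ASO tumours as compared with untreated liver, the writers and erasers rose far more often than they fell. In Smyd3-ASO tumours as compared with control-ASO tumours, those with an adjusted p under 0.05 in edgeR all fell, the ASO target Smyd3 included. Over untreated livers, 23 of 51 members rose in control-ASO livers, where 23.7% of all genes did, and 1 fell, where 22.2% did (45.9% of all genes in either direction). The members that rose included the erasers Kdm4a and Kdm3a and the writers Ash1l and Kmt5c. Smyd3-ASO livers differed too: over untreated livers, 15 rose and 5 fell, against 24.4% and 23.2% of all genes (47.6% in either direction). In P133 livers over untreated livers, 14 rose and 4 fell, against 15.1% and 16.6% (31.6% in either direction). Control-ASO over P133 livers gave 10 members up and 3 down, against 14.4% and 12.6% of all genes (27% in either direction).

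In Smyd3-ASO over control-ASO livers, 9 of 51 members fell, where 12.9% of all genes fell, and 0 rose, where 13.3% of all genes rose (26.1% in either direction). Smyd3, the target of the ASO, is 1 of the 9. The members called were thus 17.6% of those tested, and 4 of the 9 calls were lost on leaving out some 1 mouse. In edgeR 3 members were higher at an unadjusted p under 0.05, and DESeq2 called 2, Setdb2 and Kdm4c. Their log2 differences were 1.02 (SE 0.37, adjusted p = 0.0539) and 1.04 (SE 0.41, adjusted p = 0.0703). Of the 51, 34 had a negative log2 change and 16 a positive one. The median log2 change of the members was -0.11, against 0.01 over all genes tested. For Smyd3-ASO over P133 livers, 1 member rose and 6 fell, against 13.1% and 11.7% of all genes (24.8% in either direction). DESeq2 gave 5 up and 7 down there.

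**Figure D1:**
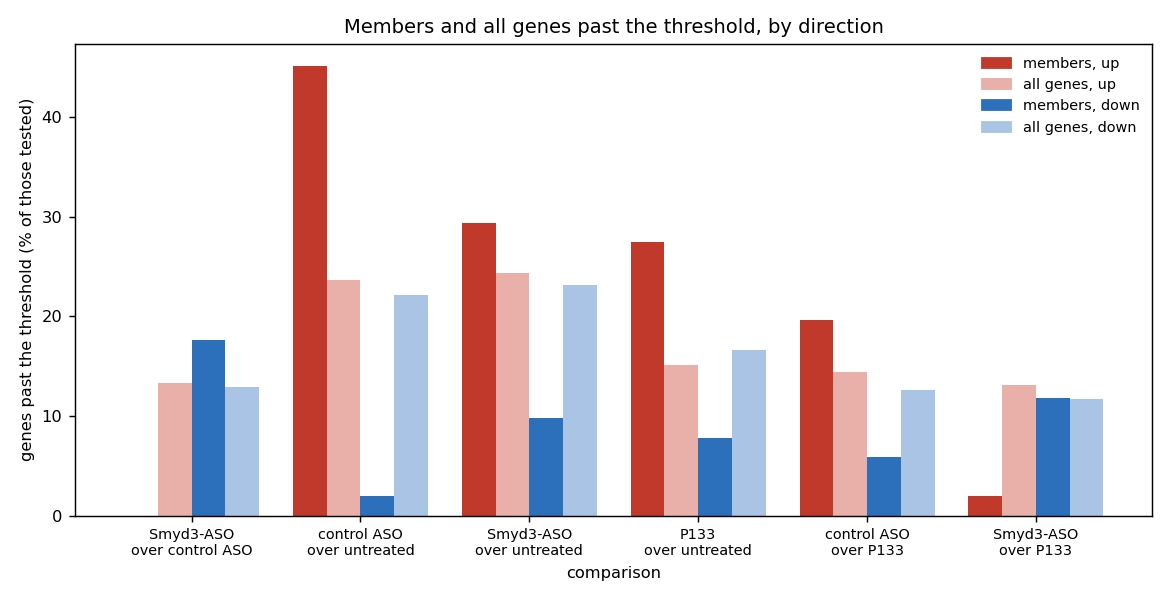
Percent of the 51 members (dark bars) and of all 15297 genes tested (pale bars) with an adjusted p under 0.05, upward in red and downward in blue, for each comparison. The members' upward bar is 45.1% for control ASO over untreated and 0 for Smyd3-ASO over control ASO.

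The members took 0.0751 to 0.103% of all counts in Smyd3-ASO livers (median 0.0861%), 0.0799 to 0.103% in control-ASO livers (median 0.0974%), 0.0667 to 0.0738% in P133 livers (median 0.0715%) and 0.0326 to 0.0453% in untreated livers (median 0.0342%). Every untreated mouse therefore lay below every DEN mouse on this unscaled measure. The median log2 change of the members over untreated livers was 0.26 in Smyd3-ASO, 0.28 in control-ASO and 0.34 in P133 livers, against 0.06, 0.06 and 0.00 over all genes. Scaling to library totals in place of TMM shifted the median of all genes by 0.90, 0.85 and 0.59 in those comparisons, and the changes given here are relative to that shift. With library totals the members called were 40 up and 2 down, 44 up and 0 down, and 35 up and 1 down. The same scaling gave 9 up and 1 down for Smyd3-ASO over P133, 17 up and 1 down for control ASO over P133, and 1 up and 6 down for Smyd3-ASO over control ASO, with median shifts of 0.29, 0.25 and 0.03.

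**Figure D2:**
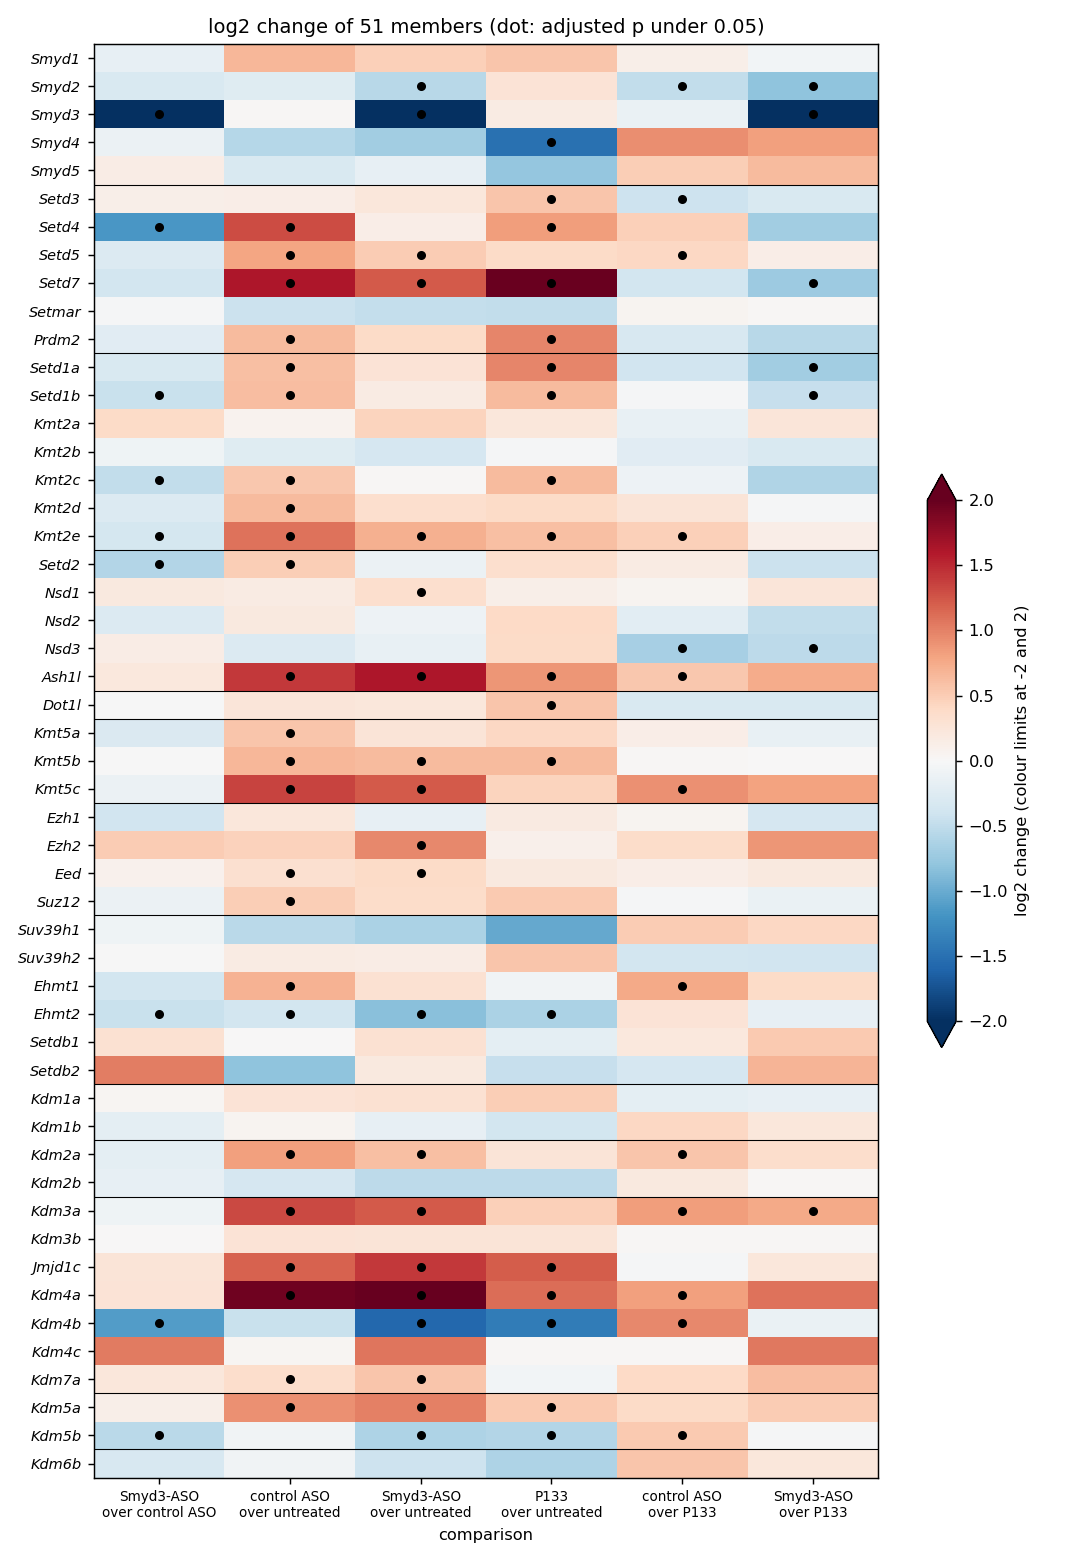
Heat map of the log2 change of each of the 51 members tested (rows, separated by lines into classes from the Smyd genes at the top to the H3K27 demethylase at the bottom) in each comparison (columns). Red is higher and blue lower in the group named first, colours stop at a log2 change of 2, and a dot marks an adjusted p under 0.05. The Smyd3-ASO over control ASO column has 9 dots, all on blue cells.

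Smyd3, a SET and MYND domain methyltransferase of histones and of the kinase MAP3K2, was the target of the ASO (chr1:178951960-179518041, minus strand, mm10). The Smyd3-ASO livers had 3, 8, 0, 13, 2 and 6 counts, or 0.181, 0.311, 0, 0.576, 0.125 and 0.758 CPM. For the mouse with 0 counts, 3 counts would have been 0.162 CPM. Control-ASO livers had 29 to 68 counts and 3.11 to 4.64 CPM with a median of 3.95, P133 livers 5.47, 4.58, 2.66 and 4.27 CPM, and untreated livers 2.36, 4.74, 3.43, 5.08 and 3.48 CPM. The highest Smyd3-ASO mouse lay below the lowest mouse of each other group, which matches the labels. The log2 change in Smyd3-ASO livers was -3.65 over control-ASO (SE 0.47, adjusted p = 0.000148), -3.78 over P133 (SE 0.57, adjusted p = 0.001) and -3.64 over untreated livers (SE 0.53, adjusted p = 0.000105). Among the other groups Smyd3 was not called. These groups overlapped, and control-ASO mice averaged 3.87 ± 0.598 CPM (n = 6), P133 mice 4.24 ± 1.17 (n = 4) and untreated mice 3.82 ± 1.10 (n = 5).

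No other Smyd gene was called in Smyd3-ASO over control-ASO livers, where the log2 changes of the 4 paralogues ran from Smyd2 at -0.30 to Smyd5 at 0.15, each with overlapping groups. At an unadjusted p under 0.05, and by DESeq2, Smyd3 alone passed there. Smyd2 encodes a methyltransferase of p53 and of histones. Its levels were 4.12 to 9.18 CPM with a median of 6.89 in Smyd3-ASO livers, 6.79 to 10.4 with a median of 7.48 in control-ASO livers, 12.2, 11.9, 11.5 and 10.7 in P133 livers, and 11.4, 9.36, 9.20, 8.85 and 9.23 in untreated livers. All P133 mice were above all ASO mice. The log2 change was -0.80 for Smyd3-ASO over P133 (SE 0.23, adjusted p = 0.0239), -0.50 for control ASO over P133 (SE 0.17, adjusted p = 0.0422) and -0.55 for Smyd3-ASO over untreated livers (SE 0.21, adjusted p = 0.0465). These calls were lost without any 1 of 3, 8 and 9 mice, at adjusted p values up to 0.0617, 0.0936 and 0.112.

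Smyd4 fell in P133 livers, where it had 0.421, 1.19, 0.444 and 1.11 CPM, against 0.967, 2.37, 2.96, 2.18 and 3.34 CPM in untreated livers. The P133 values rest on 2, 7, 2 and 7 counts. In P133 mice 1 and 3, 3 counts would have been 0.631 and 0.665 CPM. The groups overlapped through untreated mouse 1, and the log2 change was -1.49 (SE 0.47, adjusted p = 0.0249). The call was lost without P133 mouse 1, P133 mouse 3 or untreated mouse 5, and with library totals (log2 change -0.87, adjusted p = 0.129). ASO livers lay between, with Smyd4 at 1.5 ± 0.729 CPM in Smyd3-ASO and 1.59 ± 0.400 in control-ASO livers (n = 6 each). Smyd5 was not called in any comparison and averaged 2.77 ± 0.793, 2.47 ± 0.128, 1.76 ± 0.852 and 3.05 ± 0.657 CPM in Smyd3-ASO, control-ASO, P133 and untreated livers. With library totals the direction of the Smyd2, Smyd4 and Smyd5 changes over untreated livers turned upward in both ASO groups.

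Smyd1, which is known from heart and skeletal muscle, was not called in any comparison either. It had 2.1 to 5.22 CPM in Smyd3-ASO livers, 1.14 to 9.54 in control-ASO livers, 1.47, 4.75, 3.33 and 5.53 in P133 livers and 2.15, 2.96, 1.56, 2.32 and 4.01 in untreated livers. The highest value belonged to control-ASO mouse 1, in which 12 striated muscle markers summed to 967 CPM, against 4.30 CPM or less in each other mouse. Without that mouse the Smyd1 log2 change in Smyd3-ASO over control-ASO livers was 0.29 (adjusted p = 0.564). The part of muscle RNA in the Smyd1 level of that mouse was not tested.

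**Figure D3:**
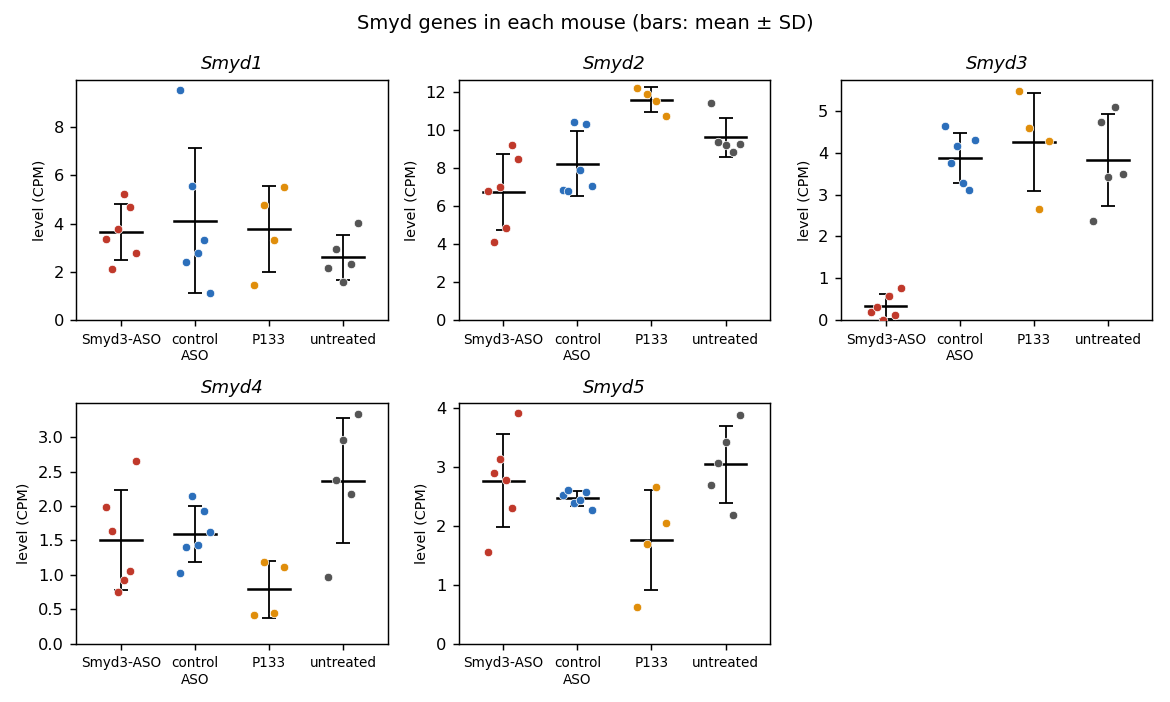
Level (CPM, linear axis from 0) of the 5 Smyd genes in each mouse, with the group mean and SD as bars (n = 6 Smyd3-ASO, 6 control ASO, 4 P133, 5 untreated). For Smyd3 the 6 Smyd3-ASO mice sit at 0.758 CPM or below and every other mouse at 2.36 CPM or above.

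Among the other SET domain genes, Setd4 and Setd7 rose over untreated livers in both control-ASO and P133 livers. In Smyd3-ASO livers Setd4 was lower than in control-ASO livers, and Setd7 lower than in P133 livers. Setd4, one of the less studied SET domain methyltransferases, had 3.91 to 9.92 CPM with a median of 6.06 in Smyd3-ASO livers, 8.33 to 23.8 with a median of 11.2 in control-ASO livers, 11.8, 8.82, 8.65 and 10.1 in P133 livers and 6.45, 5.81, 5.92, 4.50 and 4.68 in untreated livers. A single Smyd3-ASO mouse reached the control-ASO range, and the P133 and control-ASO mice all exceeded the untreated ones. The log2 change was -1.16 in Smyd3-ASO over control-ASO livers (SE 0.28, adjusted p = 0.00836), and it was 1.31 in control-ASO (SE 0.25, adjusted p = 0.000794) and 0.84 in P133 livers (SE 0.19, adjusted p = 0.00373) over untreated livers. In Smyd3-ASO over untreated livers Setd4 was not called.

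Setd7, which adds the first methyl group to H3K4 and methylates many non-histone proteins, had 3.67 to 6.82 CPM with a median of 4.71 in Smyd3-ASO livers, 2.77 to 8.80 with a median of 6.19 in control-ASO livers, 7.16, 5.60, 11.8 and 8.22 in P133 livers and 2.69, 1.42, 1.56, 1.60 and 2.94 in untreated livers. P133 mice were all above untreated mice, and the log2 change of 1.98 there (SE 0.29, adjusted p = 0.000139) was the largest rise of any member in that comparison. Over untreated livers the log2 change was 1.23 in Smyd3-ASO (adjusted p = 0.00152) and 1.61 in control-ASO livers (adjusted p = 0.00073). Setd7 was lower in Smyd3-ASO than in P133 livers by a log2 change of -0.73 (adjusted p = 0.0397), a call lost without any 1 of 8 mice. Setd3, the actin histidine methyltransferase, had 47.5 to 65.7 CPM in P133 livers, where it rose by 0.55 over untreated livers (29.8 to 46.8 CPM). It fell by 0.41 in control-ASO livers (37.3 to 47.0 CPM) relative to P133, without overlap. Those calls were lost without P133 mouse 4, and the second also without P133 mouse 1.

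Prdm2, a writer of H3K9 methylation, rose in P133 livers (log2 change 0.97) and in control-ASO livers (0.64) over untreated livers. Setd5 rose over untreated livers in Smyd3-ASO (0.50) and control-ASO livers (0.79), and over P133 livers in control-ASO livers (0.41), the last lost without P133 mouse 4. Setmar was not called in any comparison.

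Promoters of 38 of the 52 members were matched by symbol in RefSeq (GRCm38.p6), from 250 bases before to 50 bases after the start, giving 51 sequences. Those of Setd4 and Setd7 are shown because both genes rose in P133 and control-ASO livers. Capitals mark a match, on either strand, to the AP-1 motif TGANTCA, the cAMP response element TGACGTCA, the E2F-type motif TTCCCGCC, the CCAAT box or the TATA box TATAAA.
Setd4 (chr16:93603766-93604065, minus strand): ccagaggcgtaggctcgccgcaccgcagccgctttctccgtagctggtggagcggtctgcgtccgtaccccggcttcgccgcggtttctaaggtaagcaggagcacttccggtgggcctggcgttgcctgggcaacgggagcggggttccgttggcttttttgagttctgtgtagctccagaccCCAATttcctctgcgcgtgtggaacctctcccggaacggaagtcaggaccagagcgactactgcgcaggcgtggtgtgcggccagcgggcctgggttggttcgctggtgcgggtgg
Setd7 (chr3:51560774-51561073, minus strand): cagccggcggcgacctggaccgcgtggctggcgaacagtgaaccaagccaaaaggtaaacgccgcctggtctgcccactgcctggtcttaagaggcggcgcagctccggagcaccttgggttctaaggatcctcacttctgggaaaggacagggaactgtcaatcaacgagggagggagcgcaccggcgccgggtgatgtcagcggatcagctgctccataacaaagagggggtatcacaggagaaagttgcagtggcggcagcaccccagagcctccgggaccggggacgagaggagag
The Setd4 window held a CCAAT box match 66 bases before the start, and the Setd7 window held none of the 5. They contained 29 and 21 CG dinucleotides, against a median of 28 over the 51 member sequences and of 7 over all 32851 sequences of the table. A CCAAT box match was present in 43.1% of the member sequences, against 37.4% of all sequences, and a TATA box match in 1.96%, against 13.6%. The TATA match was in Smyd1.

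Of the 7 genes classed here as H3K4 writers, 1 rose in Smyd3-ASO, 5 in control-ASO and 4 in P133 livers over untreated livers. Of all genes, 24.4%, 23.7% and 15.1% rose there. Kmt2e is the 1 in Smyd3-ASO livers and is also among the 5 and the 4. The genes of this class that changed in Smyd3-ASO over control-ASO livers were Kmt2e, Setd1b and Kmt2c, and all 3 fell, where 12.9% of all genes did. Kmt2e, a SET domain protein that binds H3K4 trimethylation and has no known catalytic activity, had 44.9 to 54.5 CPM with a median of 50.3 in Smyd3-ASO livers, 52.7 to 76.4 with a median of 62.3 in control-ASO livers, 47.8, 48.2, 45.7 and 38.7 in P133 livers and 35.3, 29.2, 33.8, 22.4 and 28.4 in untreated livers. Untreated mice were below all others. The log2 change in control-ASO livers was 1.08 over untreated (SE 0.14, adjusted p = 2.64e-05) and 0.48 over P133 livers (adjusted p = 0.0109). It was 0.71 for Smyd3-ASO and 0.60 for P133 over untreated livers. In Smyd3-ASO over control-ASO livers it was -0.35 (SE 0.11, adjusted p = 0.0365). The end of Kmt2e overlaps the end of Srpk2 on the opposite strand, and with no statement on the strand used in counting its values are uncertain.

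Setd1a and Setd1b are the catalytic subunits of the COMPASS complexes that trimethylate H3K4 at promoters. Setd1a had 7.70 to 12.6 CPM with a median of 9.92 in Smyd3-ASO livers, 10.3 to 14.0 with a median of 12.1 in control-ASO livers, 17.0, 14.9, 14.2 and 17.4 in P133 livers and 9.67, 8.65, 8.42, 6.82 and 6.55 in untreated livers. It was highest in P133 livers, with no overlap with any other group. The log2 change was 0.98 for P133 over untreated (SE 0.17, adjusted p = 0.000448), 0.60 for control ASO over untreated (adjusted p = 0.00374) and -0.70 for Smyd3-ASO over P133 livers (SE 0.18, adjusted p = 0.0157, or 0.0509 without P133 mouse 4). Its exons share 3523 bases with Gm49388 on the same strand, so its counts are uncertain. Setd1b changed by a log2 of 0.61 in control-ASO and 0.64 in P133 over untreated livers, by -0.44 in Smyd3-ASO over control-ASO and by -0.46 in Smyd3-ASO over P133 livers. The last call was lost without any 1 of 8 of the 10 mice, at adjusted p values up to 0.106, and with library totals, no filter, the replicate block or thinned counts.

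Kmt2c and Kmt2d encode the writers of H3K4 monomethylation at enhancers. Kmt2c had a log2 change of 0.54 in control-ASO and 0.64 in P133 over untreated livers, and of -0.50 in Smyd3-ASO over control-ASO livers. Kmt2d rose in control-ASO over untreated livers alone, by 0.63. Their paralogues Kmt2a and Kmt2b, the MLL1 and MLL2 genes, were not called in any comparison. The falls of Kmt2e, Setd1b and Kmt2c in Smyd3-ASO over control-ASO livers were lost without any 1 of 7 or 8 of the 12 mice, at adjusted p values up to 0.0824, 0.0907 and 0.0929, while their log2 changes stayed between -0.58 and -0.29.

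Of the H3K36 writers, Ash1l, which dimethylates H3K36 at active genes, rose over untreated livers in all 3 DEN groups. It had 13.3 to 40.5 CPM with a median of 24.4 in Smyd3-ASO livers, 18.3 to 26.7 with a median of 24.0 in control-ASO livers, 17.7, 16.1, 14.2 and 16.3 in P133 livers and 7.63, 8.89, 10.3, 8.13 and 8.83 in untreated livers. Each DEN mouse exceeded each untreated mouse, and Smyd3-ASO mice 3 and 4, at 40.5 and 38.4 CPM, stood above all others. The log2 change over untreated livers was 1.61 in Smyd3-ASO (SE 0.26, adjusted p = 0.000207), 1.42 in control-ASO (SE 0.13, adjusted p = 1.7e-06) and 0.88 in P133 livers (SE 0.16, adjusted p = 0.000625). In control-ASO over P133 livers it was 0.54 (adjusted p = 0.0092).

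Setd2, the enzyme that trimethylates H3K36 along transcribed genes, fell in Smyd3-ASO livers, which had 10.2 to 18.3 CPM with a median of 15.9, against 18.5 to 27.8 CPM with a median of 22.9 in control-ASO livers. The groups did not overlap, although the highest Smyd3-ASO mouse was just below the lowest control-ASO mouse. The log2 change was -0.59 (SE 0.16, adjusted p = 0.0131), and it stayed between -0.65 and -0.50 and past the threshold without any 1 mouse. In control-ASO over untreated livers Setd2 rose by 0.49. Nsd3, an H3K36 dimethylase gene, had 25.9 to 36.6 CPM with a median of 28.1 in Smyd3-ASO livers, 22 to 30.2 with a median of 26.9 in control-ASO livers, 42.9, 46.3, 29.3 and 51.7 in P133 livers and 32.9, 31.2, 41.9, 29.0 and 27.6 in untreated livers. P133 mice were high except for mouse 3. The log2 change of Nsd3 was -0.67 in control-ASO (SE 0.15, adjusted p = 0.00506) and -0.53 in Smyd3-ASO livers (SE 0.17, adjusted p = 0.0421) over P133. The second of these was lost without any 1 of 7 mice.

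Nsd1 rose by 0.34 in Smyd3-ASO over untreated livers, lost without any 1 of 7 mice, and Nsd2 was not called in any comparison. Dot1l, the H3K79 methyltransferase, rose by 0.55 in P133 over untreated livers, where it had 20.4, 20.7, 12.6 and 20.5 CPM in P133 and 11.2 to 14.1 CPM in untreated livers. That call was lost without any 1 of 5 mice.

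All 3 H4K20 writers rose in control-ASO livers over untreated livers, where 23.7% of all genes rose. None was called between the ASO groups, where 26.1% of all genes were, with log2 changes there between -0.29 (Kmt5a) and -0.01 (Kmt5b). In edgeR 0 of the 3 had an unadjusted p under 0.05 there, and DESeq2 called 0. Kmt5c, which trimethylates H4K20 at heterochromatin, had 7.36 to 27 CPM with a median of 13.3 in Smyd3-ASO livers, 12.7 to 20.2 with a median of 14.1 in control-ASO livers, 6.74, 8.65, 11.3 and 6.00 in P133 livers and 6.34, 8.65, 4.52, 5.37 and 4.95 in untreated livers. Control-ASO mice were above all P133 and untreated mice. The log2 change in control-ASO livers was 1.35 over untreated (SE 0.18, adjusted p = 4.62e-05) and 0.92 over P133 livers (SE 0.20, adjusted p = 0.00357). In Smyd3-ASO over untreated livers it was 1.22 (adjusted p = 0.00641). Kmt5b, its paralogue, rose over untreated livers in Smyd3-ASO (0.64), control-ASO (0.67) and P133 livers (0.64). Kmt5a, the H4K20 monomethylase, rose in control-ASO over untreated livers by 0.55.

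Within PRC2, which trimethylates H3K27, the ratio of the 2 alternative catalytic subunits, Ezh2 to Ezh1, was higher in Smyd3-ASO than in control-ASO and P133 livers. Ezh2, the form of dividing cells, averaged 3.64 ± 0.586 CPM in Smyd3-ASO, 2.51 ± 0.867 in control-ASO, 1.94 ± 0.918 in P133 and 1.86 ± 0.722 in untreated livers. Ezh1, the form found in resting cells, averaged 12.1 ± 3.09, 15.7 ± 1.38, 15.2 ± 4.14 and 13.4 ± 4.03 CPM in the same groups. Neither gene was called on its own in Smyd3-ASO over control-ASO livers, with log2 differences of 0.51 for Ezh2 (SE 0.24, adjusted p = 0.12) and -0.38 for Ezh1 (SE 0.17, adjusted p = 0.10). Ezh2 rose in Smyd3-ASO over untreated livers by 0.96 (SE 0.26, adjusted p = 0.00851).

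The log2 ratio of Ezh2 to Ezh1 counts within a mouse, which does not depend on scaling between mice, was -1.89, -1.83, -0.74, -1.55, -2.05 and -2.13 in Smyd3-ASO livers and -2.09, -2.35, -2.96, -3.09, -3.48 and -2.18 in control-ASO livers. It was -3.02, -2.64, -4.20 and -2.27 in P133 and -3.84, -3.45, -2.06, -2.90 and -1.85 in untreated livers. The Smyd3-ASO mice were all above the P133 mice and, but for mouse 6, above all control-ASO mice. The mean ratio was -1.70 ± 0.51 in Smyd3-ASO and -2.69 ± 0.56 in control-ASO livers, a difference of 0.99 (exact two-sided permutation p = 0.00433, adjusted over 6 comparisons 0.026). Over P133 livers, at -3.03 ± 0.84, the difference was 1.33 (exact p = 0.00952, adjusted 0.0286). Without any 1 of the P133 mice it was 0.94 to 1.59. There 6 against 3 mice, beside the p-values of the other comparisons, allow no adjusted p below 0.0714. Over untreated livers, at -2.82 ± 0.86, the difference was 1.12 (exact p = 0.039, adjusted 0.0779). The other 3 comparisons gave differences of -0.21 to 0.34 with adjusted exact p values of 0.686 to 0.771. Ezh2 had 29 to 95 counts in Smyd3-ASO, 14 to 49 in control-ASO, 3 to 17 in P133 and 10 to 19 in untreated mice, which limits the precision of the ratio. Of the 17 proliferation markers 16 were tested. In Smyd3-ASO over control-ASO livers 1 rose, Pcna, and 0 fell, against 13.3% and 12.9% of all genes. The median log2 change of the tested markers was -0.49 there. In control-ASO over untreated livers 5 rose and 2 fell, against 23.7% and 22.2% of all genes, with a median of 0.54. The sum of the 17 markers was 94.0 to 177 CPM in Smyd3-ASO, 126 to 198 in control-ASO, 120 to 155 in P133 and 266 to 478 in untreated livers. Tyms, a thymidylate synthesis enzyme of the list, averaged 266 CPM of the sum in untreated livers. Marker values and the ratio were not tested against each other.

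**Figure D4:**
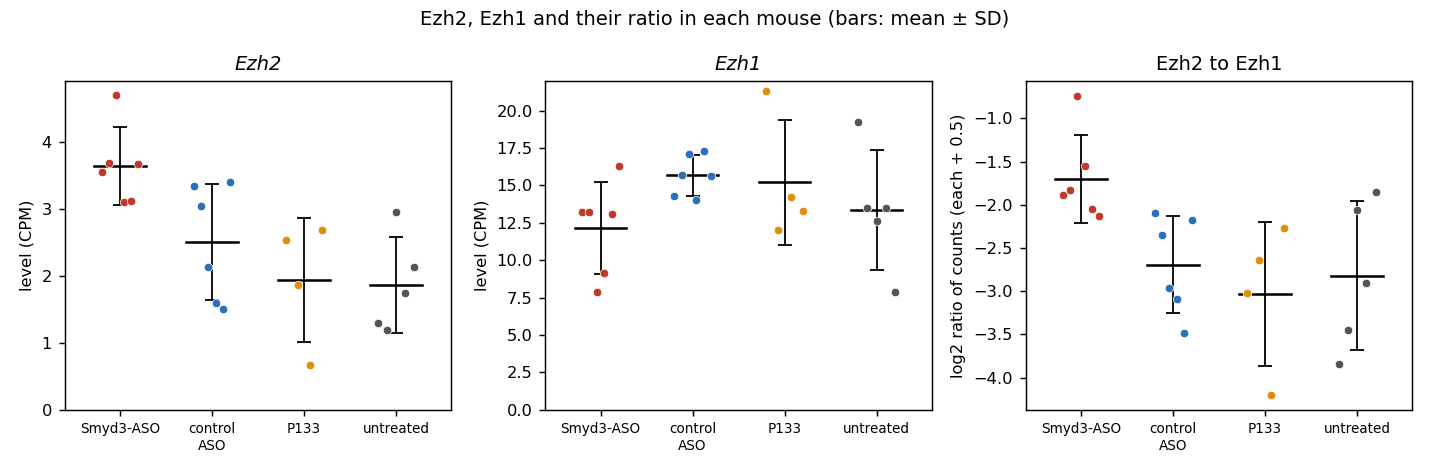
Level of Ezh2 and of Ezh1 (CPM, axes from 0) and the log2 ratio of Ezh2 to Ezh1 counts with 0.5 added to each, in each mouse, with group mean and SD. The ratio averages -1.70 in the 6 Smyd3-ASO mice and -2.69 in the 6 control-ASO mice.

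Eed and Suz12 are the PRC2 core subunits. Eed rose by 0.38 in Smyd3-ASO and 0.32 in control-ASO over untreated livers, and Suz12 by 0.49 in control-ASO over untreated livers. Those 3 calls were lost without any 1 of 7, 9 and 5 mice.

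The H3K9 dimethylases Ehmt1 (GLP) and Ehmt2 (G9a), which act as a pair, were called in opposite directions in control-ASO over untreated livers. The Ehmt2 call there was not stable, as given below. Over untreated livers Ehmt1 was not called in Smyd3-ASO (log2 change 0.31, adjusted p = 0.174) or P133 livers (-0.07, adjusted p = 0.779). Ehmt1 had 24.1 to 43.4 CPM with a median of 34.5 in Smyd3-ASO livers, 33.6 to 55.3 with a median of 42.7 in control-ASO livers, 24.8, 28.5, 22.4 and 27 in P133 livers and 27.3, 28.7, 33.4, 25.7 and 19.8 in untreated livers. Control-ASO mice exceeded all P133 and untreated mice. Its log2 change in control-ASO livers was 0.76 over P133 (SE 0.15, adjusted p = 0.00205) and 0.69 over untreated livers (SE 0.15, adjusted p = 0.00226).

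Ehmt2 had 6.37 to 10.2 CPM with a median of 8.24 in Smyd3-ASO livers, 9.13 to 13 with a median of 11.5 in control-ASO livers, 6.31, 9.84, 10.6 and 10.1 in P133 livers and 17.5, 14.5, 11.5, 15.0 and 13.6 in untreated livers. No Smyd3-ASO or P133 mouse reached the untreated range. Over untreated livers the log2 change of Ehmt2 was -0.83 in Smyd3-ASO (SE 0.17, adjusted p = 0.00121), -0.37 in control-ASO (SE 0.14, adjusted p = 0.0444) and -0.64 in P133 livers (SE 0.19, adjusted p = 0.0171). Between the ASO groups it was -0.45 (SE 0.15, adjusted p = 0.0437). The fall in control-ASO over untreated livers was the only fall of a member in that comparison. It was lost without any 1 of 7 mice and under each of the 6 alternative settings. The fall between the ASO groups was lost without any 1 of 8 mice and under 4 of the 6 settings. The P133 call was lost without P133 mouse 1 (adjusted p = 0.0543). With library totals the Ehmt2 change over untreated livers turned to 0.06 in Smyd3-ASO and 0.47 in control-ASO livers, and in P133 livers it was -0.07 (adjusted p = 0.83), no longer past the threshold. The H3K9 methyltransferase genes Suv39h1, Suv39h2, Setdb1 and Setdb2 were not called in any comparison, whereas Prdm2, given above, was. The end of Setdb1 overlaps that of Cers2 on the opposite strand.

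Kdm4a and Kdm4b, paralogous JmjC demethylases of H3K9 and H3K36 trimethylation, were called in opposite directions over untreated livers in Smyd3-ASO and P133 livers. In control-ASO over untreated livers Kdm4b was not called (log2 change -0.45, SE 0.20, adjusted p = 0.0783). Kdm4a (chr4:118136957-118180043, minus strand) had 35.3, 56.6, 106, 109, 49.3 and 24.8 CPM in Smyd3-ASO livers, 38.8, 59.4, 44.4, 54.3, 67.4 and 51.4 in control-ASO livers, 30.9, 29.9, 33.3 and 25.3 in P133 livers and 14.5, 17.0, 14.2, 11.8 and 11.2 in untreated livers. Every DEN mouse exceeded every untreated mouse, and every control-ASO mouse exceeded every P133 mouse. Smyd3-ASO mice 3 and 4 had the highest levels, as they did for Ash1l. The log2 change over untreated livers was 2.19 in Smyd3-ASO (SE 0.37, adjusted p = 0.000502), 1.94 in control-ASO (SE 0.16, adjusted p = 6.78e-07) and 1.12 in P133 livers (SE 0.15, adjusted p = 7.73e-05). Control-ASO over P133 livers gave 0.82 (SE 0.16, adjusted p = 0.00161). All 4 calls were kept without any 1 mouse and under each alternative. In Smyd3-ASO over P133 livers the log2 difference of 1.08 was not past the threshold (SE 0.39, adjusted p = 0.0642).

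Kdm4b (chr17:56326062-56402870, plus strand) had 1.08, 2.02, 1.52, 2.39, 2.06 and 2.28 CPM in Smyd3-ASO livers, 3.00, 3.96, 4.15, 4.21, 5.69 and 3.41 in control-ASO livers, 2.32, 1.36, 1.55 and 3.00 in P133 livers and 6.88, 6.16, 4.68, 4.21 and 5.62 in untreated livers. Smyd3-ASO mice lay below all control-ASO and all untreated mice and overlapped P133 mice, with Smyd3-ASO mouse 1 lower than any P133 mouse. The log2 change in Smyd3-ASO livers was -1.11 over control-ASO (SE 0.23, adjusted p = 0.00349) and -1.57 over untreated livers (SE 0.24, adjusted p = 0.000152). In P133 over untreated livers it was -1.40 (SE 0.29, adjusted p = 0.00191). In control-ASO over P133 livers it was 0.96 (SE 0.29, adjusted p = 0.0241), a call lost without control-ASO mouse 5, P133 mouse 2 or P133 mouse 3 at adjusted p values up to 0.0807. Kdm4c, the third paralogue of the list, was not called in any comparison.

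Kdm3a and Jmjd1c, JmjC demethylases of H3K9 mono- and dimethylation, both rose over untreated livers. Kdm3a had 6.93 to 10.9 CPM with a median of 8.51 in Smyd3-ASO livers, 6.81 to 12.0 with a median of 8.84 in control-ASO livers, 5.68, 5.09, 3.33 and 6.00 in P133 livers and 2.47, 3.79, 4.83, 3.92 and 3.21 in untreated livers. The ASO mice were all above the others. The log2 change in Smyd3-ASO livers was 0.76 over P133 (SE 0.22, adjusted p = 0.0253) and 1.23 over untreated livers (SE 0.21, adjusted p = 0.000313). In control-ASO livers it was 0.84 over P133 (SE 0.21, adjusted p = 0.00961) and 1.32 over untreated livers (SE 0.20, adjusted p = 0.000108). The rise in Smyd3-ASO over P133 livers was lost without P133 mouse 2 or 3 (adjusted p up to 0.0702).

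Jmjd1c, of the Kdm3 family, had 8.49, 7.81, 37.5, 7.31, 11.2 and 5.69 CPM in Smyd3-ASO livers, 9.08 to 14.7 with a median of 10.5 in control-ASO livers, 12.0, 8.99, 13.3 and 10.3 in P133 livers and 5.26, 3.44, 5.30, 4.79 and 5.22 in untreated livers. All DEN mice were above all untreated mice. The log2 change of Jmjd1c over untreated livers was 1.18 in control-ASO (SE 0.17, adjusted p = 7.69e-05) and 1.21 in P133 livers (SE 0.20, adjusted p = 0.000368). In Smyd3-ASO livers it was 1.42 (SE 0.48, adjusted p = 0.029). Without Smyd3-ASO mouse 3 this became 0.74 (adjusted p = 0.0115), and the call was lost without untreated mouse 1, 2 or 4 (adjusted p up to 0.0679). Kdm7a rose over untreated livers by 0.55 in Smyd3-ASO and 0.35 in control-ASO livers, lost without any 1 of 4 and 8 mice. Kdm3b was not called in any comparison.

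The H3K4 demethylase paralogues Kdm5a and Kdm5b were also called in opposite directions over untreated livers in Smyd3-ASO and P133 livers. In control-ASO over untreated livers Kdm5b was not called (log2 change -0.07, adjusted p = 0.681). Kdm5a had 18.5 to 30.6 CPM with a median of 21.3 in Smyd3-ASO livers, 17.4 to 26.2 with a median of 21.7 in control-ASO livers, 11.4, 17.6, 19.1 and 17.1 in P133 livers and 9.13, 13, 12.2, 11 and 11.2 in untreated livers. The ASO mice were all above untreated mice. Its log2 change over untreated livers was 1.01 in Smyd3-ASO (SE 0.17, adjusted p = 0.000266), 0.92 in control-ASO (SE 0.14, adjusted p = 8.68e-05) and 0.53 in P133 livers (SE 0.18, adjusted p = 0.0338). The P133 call was lost without any 1 of 5 mice.

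Kdm5b had 8.85, 10.2, 8.82, 9.25, 7.49 and 7.33 CPM in Smyd3-ASO livers, 12.0, 14.6, 13.8, 12.2, 10.8 and 11.8 in control-ASO livers, 8.63, 9.84, 6.88 and 9.48 in P133 livers and 14.3, 13.9, 12.2, 10.7 and 14.7 in untreated livers. No Smyd3-ASO or P133 mouse reached the control-ASO or untreated range. The log2 change in Smyd3-ASO livers was -0.54 over control-ASO (SE 0.13, adjusted p = 0.00748) and -0.62 over untreated livers (SE 0.14, adjusted p = 0.00293). In P133 over untreated livers it was -0.59 (SE 0.17, adjusted p = 0.0168), and in control-ASO over P133 livers 0.52 (SE 0.15, adjusted p = 0.021, or 0.0587 without P133 mouse 3). With library totals the changes over untreated livers were 0.28 in Smyd3-ASO and 0.00 in P133 livers, neither past the threshold.

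**Figure D5:**
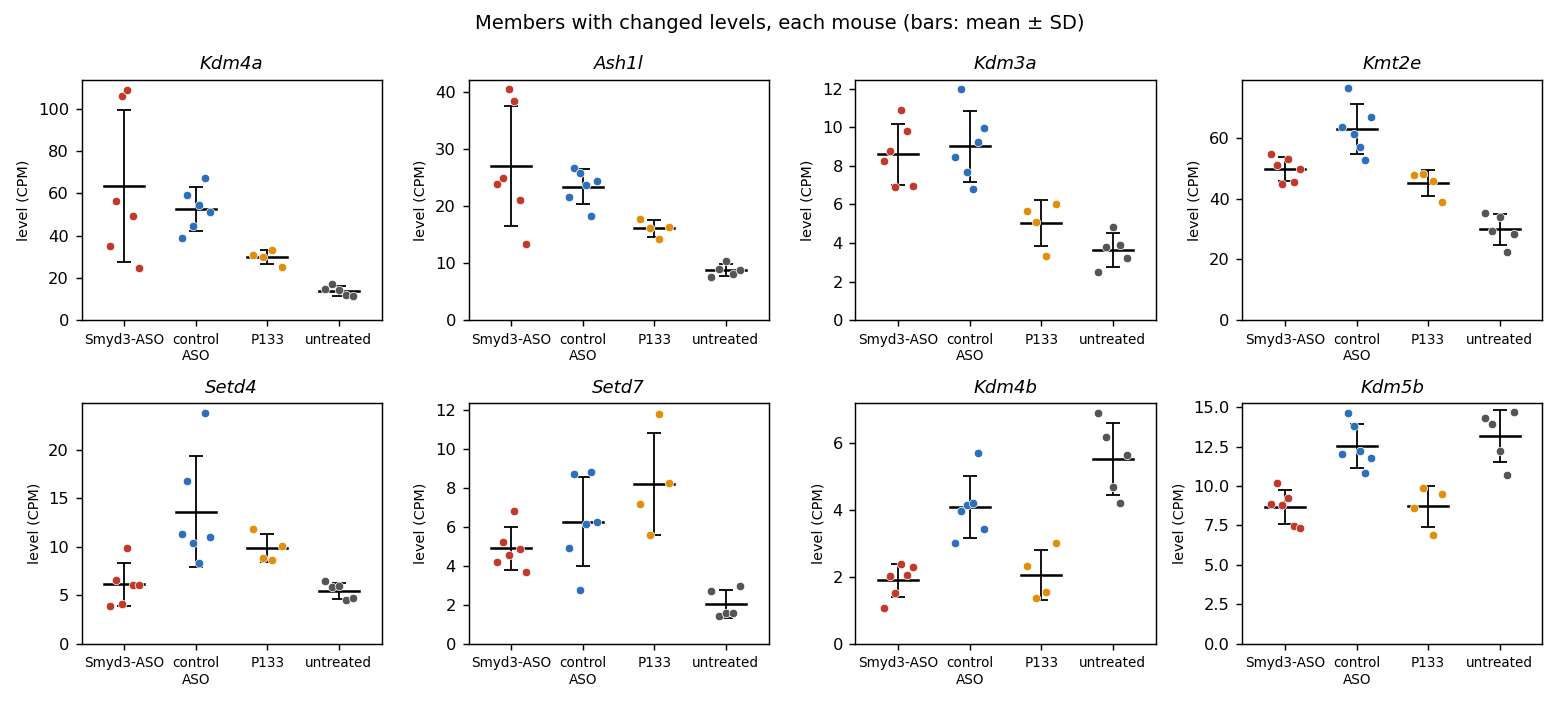
Level (CPM, linear axes from 0) of 8 members in each mouse, with group mean and SD as bars. Kdm4a, Ash1l, Kdm3a and Kmt2e are lowest in untreated livers, whereas Kdm4b and Kdm5b are low in Smyd3-ASO and P133 livers and high in control-ASO and untreated livers.

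The promoters of Kdm4a, which rose, and Kdm5b, which fell in P133 livers, are shown in the same way (GRCm38.p6).
Kdm4a (chr4:118179994-118180293, minus strand): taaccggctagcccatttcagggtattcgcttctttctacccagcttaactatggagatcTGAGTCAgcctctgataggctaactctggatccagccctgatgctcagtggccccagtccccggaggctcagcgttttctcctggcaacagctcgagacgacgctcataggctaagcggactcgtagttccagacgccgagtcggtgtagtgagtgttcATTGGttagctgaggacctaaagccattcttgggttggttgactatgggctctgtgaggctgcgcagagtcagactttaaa
Kdm5b (chr1:134559928-134560227, plus strand): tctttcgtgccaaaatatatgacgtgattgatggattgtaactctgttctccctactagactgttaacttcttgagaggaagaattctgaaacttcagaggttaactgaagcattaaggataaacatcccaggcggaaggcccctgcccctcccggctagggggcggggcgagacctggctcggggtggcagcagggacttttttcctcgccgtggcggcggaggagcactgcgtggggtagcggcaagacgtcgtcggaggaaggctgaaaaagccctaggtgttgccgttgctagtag
The Kdm4a window held an AP-1 match 190 bases and a CCAAT box match 31 bases before the start, and that of Kdm5b held none of the 5 motifs. They contained 13 and 17 CG dinucleotides. An AP-1 match was present in 3 of the 51 member sequences (5.88%), those of Kdm4a and Kdm3a, against 7.81% of all 32851. A cAMP response element match was in 1 (1.96%, against 1.79%) and an E2F-type match in 2 (3.92%, against 2.19%), in Suv39h2 and Kmt5c.

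Of the remaining erasers, Kdm2a, an H3K36 demethylase that binds CpG islands, had 24.5 to 40.8 CPM with a median of 33.6 in Smyd3-ASO livers, 34.4 to 43.7 with a median of 38.9 in control-ASO livers, 20.6, 32.4, 25.5 and 27.8 in P133 livers and 24.4, 23.8, 24.6, 13.8 and 24.6 in untreated livers. Control-ASO mice exceeded all P133 and untreated mice. Its log2 change in control-ASO livers was 0.56 over P133 (SE 0.14, adjusted p = 0.00729) and 0.82 over untreated livers (SE 0.15, adjusted p = 0.000464), and in Smyd3-ASO over untreated livers it was 0.60 (SE 0.18, adjusted p = 0.0124). Kdm2b, its paralogue, was not called in any comparison, nor were the LSD genes Kdm1a and Kdm1b or the H3K27 demethylase Kdm6b. The ends of Kdm2b and Kdm1b overlap those of Rnf34 and Dek on the opposite strand.

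In Smyd3-ASO over control-ASO livers, 42 of the 51 members missed the threshold, with log2 changes of -0.38 to 1.04. Relative to untreated livers, 31 members missed it in Smyd3-ASO (-0.70 to 1.07), 27 in control-ASO (-0.80 to 0.66) and 33 in P133 livers (-1.03 to 0.55). Relative to P133 livers, 44 missed it in Smyd3-ASO (-0.69 to 1.08) and 38 in control-ASO livers (-0.38 to 0.93). The comparisons with untreated livers share the same 5 mice, and those with P133 the same 4, so they are not independent of each other.

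Partner and related genes were read from lists of the same pathway, with counts to be set beside the percentages of all genes given above. The median log2 change of a list in Smyd3-ASO over control-ASO livers ran from -0.39 for the CoREST subunits to 0.21 for the enzymes of S-adenosylmethionine, against 0.01 over all genes. In control-ASO over untreated livers it ran from -0.31 for the arginine methyltransferases to 0.57 for the H3K9 methylation readers, against 0.06. The PRC2 accessory subunits, of which 7 were tested, had 1 up and 1 down in Smyd3-ASO over control-ASO livers and 3 up and 1 down in control-ASO over untreated livers. Jarid2, which brings PRC2 to chromatin, fell to 5.41 ± 1.18 CPM in Smyd3-ASO livers, against 10.2 ± 1.03 CPM in control-ASO livers (log2 change -0.93, SE 0.16, adjusted p = 0.000924). The histone chaperone Rbbp4 rose to 191 ± 49.4 CPM, against 117 ± 13.5 CPM (log2 change 0.70, adjusted p = 0.00947). Rbbp7 (log2 change 0.62) and Mtf2 (0.84) had the lowest adjusted p of the list in control-ASO over untreated livers.

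The COMPASS subunits (13 tested) had 2 up and 1 down in Smyd3-ASO over control-ASO livers, where Pagr1a (0.60) and the scaffold Wdr5 (0.41) rose. In control-ASO over untreated livers 3 rose and 4 fell, led by Ncoa6 (1.14) and Men1, the menin gene (-0.75). The CoREST subunits, partners of Kdm1a (9 tested), had 2 down in Smyd3-ASO over control-ASO livers, Hmg20b (-0.75) and Rcor3 (-0.73). Over untreated livers they had 4 up and 1 down in control-ASO livers, led by Phf21a (1.25) and Rcor1 (0.78). The H3K9 methylation readers (6 tested) had 1 up and 2 down in Smyd3-ASO over control-ASO livers. Trim28, the corepressor that recruits Setdb1, was at 23.7 ± 5.83 CPM in Smyd3-ASO and 40.6 ± 5.50 CPM in control-ASO livers (log2 change -0.79, adjusted p = 0.00298), and the HP1 gene Cbx5 changed by -0.53. Over untreated livers 3 readers rose and 2 fell in control-ASO livers, with the HP1 genes Cbx3 (1.13) and Cbx1 (0.90) called most clearly.

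Other lysine methyltransferases (12 tested) had 1 up and 2 down in Smyd3-ASO over control-ASO livers. Vcpkmt, which methylates the ATPase VCP, changed by -1.34, and Etfbkmt, which methylates an electron transfer flavoprotein of mitochondria, by 0.80. Control-ASO livers had 3 up and 2 down over untreated livers, led by Eef1akmt1 (-1.36) and Mettl21a (0.56). Other JmjC and related genes (11 tested) had 1 up and 2 down between the ASO groups, with the asparagine hydroxylase Hif1an at 0.48 and Phf2 at -0.35. They had 4 up and 2 down in control-ASO over untreated livers, led by Uty (1.46), the Y-linked relative of Kdm6a, and Hif1an (0.89). In P133 over untreated livers 6 rose and 2 fell, with Jmjd6 at 0.83 and Uty at 1.58.

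The arginine methyltransferases (8 tested) had 1 up in Smyd3-ASO over control-ASO livers, Prmt9 at 0.51. Control-ASO livers had 1 up and 2 down over untreated livers. Prmt1, the main enzyme of asymmetric arginine dimethylation, was at 22.7 ± 4.88 CPM in control-ASO and 52.4 ± 5.93 CPM in untreated livers (log2 change -1.21, adjusted p = 1.98e-05), and Carm1 changed by -1.18. Of the 8 enzymes that make or use S-adenosylmethionine, 1 rose in Smyd3-ASO over control-ASO livers. It was Nnmt, which methylates nicotinamide, at 170 ± 164 CPM in Smyd3-ASO and 23.2 ± 15.8 CPM in control-ASO livers (log2 change 2.86, SE 0.73, adjusted p = 0.014). Over untreated livers 1 fell in control-ASO livers, the glycine methyltransferase Gnmt, at 896 ± 344 CPM in control-ASO and 2450 ± 529 CPM in untreated livers (log2 change -1.45, adjusted p = 0.000402).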

How the data were processed

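RNA of 21 mouse livers (35 libraries, QuantSeq 3' kit per the labels' protocols) was deposited by the authors as a table of raw counts per Ensembl gene, with technical replicate libraries of an ASO mouse merged per the file headers. HISAT2 2.1.0, DESeq and the mm10 build are named in the submitters' processing notes. The counting program, its annotation and its use of strand are not given in the sources used here, and a normalized table of the same counts was not used.

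All 55413 gene IDs matched GENCODE vM21, the source of symbols and positions. The members and lists were chosen with earlier results of these data known. Genes were filtered with filterByExpr over the 4 groups, and each pair of groups was compared with edgeR 4.0.16 (R 4.3.3), TMM scaling and the robust quasi-likelihood test, Benjamini-Hochberg adjusted over the 15297 genes tested, with a threshold of 0.05. A standard error is the log2 change over the square root of F. CPM used TMM scaling over 21 mice, and levels of different genes were not compared. The procedure was tested on simulated counts. The Ezh2 to Ezh1 ratio (0.5 added to each count) was compared by exact permutation over mice (SciPy 1.17.1, Python 3.11.15), adjusted over 6 comparisons. Samples were grouped by their titles. The titles number biological replicates, taken as separate mice, and p-values measure the spread between them.

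Genes named with values were the members of the Smyd family and, in each comparison, the 4 members of lowest adjusted p in each direction past the threshold. Other members past it are given by log2 change, Setd2 and Dot1l with their levels as well. Kdm4c, Setdb2, Ezh1 and Ezh2 are given as paralogues or partners. In each pathway list the genes of lowest adjusted p were named. Alternatives were library totals, median-of-ratios size factors, no filter, DESeq2 1.42.0, a replicate block, counts thinned to 4556484 per mouse, and leaving out each mouse. Same-numbered mice did not deviate together. Reads carry no molecular identifiers here, so the floor of 3 counts covers counting error only. Promoters are from RefSeq (GRCm38.p6). Antkmt and Tf were not analysed here.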

Additional observations from a re-analysis of the deposited data

Results flagged for a closer look

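Of 204 sets of levels (51 members in 4 groups), 12 held a mouse whose gap to the nearest other mouse was large relative to the range of its group, and chance alone gives about 1 in 20. Smyd3-ASO mouse 6, the ASO mouse with 1 library and 6358080 counts, held 4 of them. It was lowest for Nsd2 at 5.69 CPM (next 8.88) and for Eed at 13.1 CPM (next 17.6), and highest for Suz12 at 11.8 CPM (next 8.71) and for Kdm1a at 8.34 CPM (next 4.62). Smyd3-ASO mouse 3 was highest for Jmjd1c at 37.5 CPM (next 11.2) and for Ezh2 at 4.71 CPM (next 3.69). Smyd3-ASO mouse 5 was highest for Kmt2a at 27.7 CPM (next 15.2). P133 mouse 3 was lowest for Dot1l at 12.6 CPM (next 20.4). Among untreated mice, mouse 1 was highest for Smyd2 at 11.4 CPM (next 9.36) and lowest for Kmt2c at 9.35 CPM (next 10.2), mouse 2 was lowest for Jmjd1c at 3.44 CPM (next 4.79), and mouse 4 was lowest for Kdm2a at 13.8 CPM (next 23.8).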

How the results depend on the processing

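Scaling to library totals gave 1 member up in Smyd3-ASO over control ASO, 40 up and 2 down in Smyd3-ASO, 44 up and 0 down in control-ASO and 35 up and 1 down in P133 over untreated, and 9 up and 1 down in Smyd3-ASO and 17 up and 1 down in control-ASO over P133. It also turned the log2 change to 0.06 for Ehmt2, 0.32 for Smyd2, 0.28 for Smyd4, 0.74 for Smyd5 and 0.28 for Kdm5b in Smyd3-ASO over untreated, to 0.47 for Ehmt2, 0.61 for Smyd2, 0.32 for Smyd4 and 0.56 for Smyd5 in control-ASO over untreated, to 0.00 for Kdm5b in P133 over untreated and to 0.19 for Smyd1 in Smyd3-ASO over P133. Smyd3 came to 0.88 in control-ASO over untreated (adjusted p = 0.00261), 0.77 in P133 over untreated (adjusted p = 0.04) and 0.12 in control-ASO over P133 under that scaling. The single fall in control-ASO over untreated became 0 with median-of-ratios size factors, DESeq2, the replicate block and thinned counts.

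Without the filter, members down were 5 in Smyd3-ASO over control ASO and 1 in control-ASO over P133, and Smyd3-ASO over P133 had 3 up and 3 down. DESeq2 gave 2 up in Smyd3-ASO over control ASO and 5 up in Smyd3-ASO over P133. Mice of the same number share only that number (correlations of their deviations -0.19 to 0.19), and with the replicate block 5 members were down in Smyd3-ASO over control ASO, 6 up and 1 down in control-ASO over P133 and 6 up in Smyd3-ASO over P133. Smyd1 in Smyd3-ASO over control ASO was 0.02 with the block and 0.01 with thinned counts, and with thinned counts Smyd1 in Smyd3-ASO over P133 was 0.16 and Smyd3 in control-ASO over untreated -0.10.

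Leaving out 1 mouse at a time gave 0 to 2 members up and 5 to 8 down in Smyd3-ASO over control ASO, 12 to 15 up and 4 to 5 down in Smyd3-ASO over untreated, 20 to 22 up and 0 to 2 down in control-ASO over untreated, 11 to 16 up and 2 to 5 down in P133 over untreated, 0 to 5 up and 2 to 6 down in Smyd3-ASO over P133, and 8 to 11 up and 1 to 4 down in control-ASO over P133. Smyd3 ran from -0.11 to 0.15 in control-ASO over untreated, 0.02 to 0.32 in P133 over untreated and -0.29 to 0.01 in control-ASO over P133. Smyd4 ran from -0.31 to 0.02 and Smyd1 from -0.37 to 0.29 in Smyd3-ASO over control ASO, and Smyd1 from -0.32 to 0.18 in Smyd3-ASO and -0.37 to 0.36 in control-ASO over P133. The Ezh2 to Ezh1 difference ran from 0.80 to 1.11 in Smyd3-ASO over control ASO, -0.13 to 0.37 in control-ASO over untreated, -0.47 to 0.18 in P133 over untreated and -0.05 to 0.59 in control-ASO over P133. In Smyd3-ASO over untreated it ran from 0.87 to 1.36, the last without untreated mouse 5 (exact adjusted p = 0.0381). In Smyd3-ASO over P133 it was 0.94 to 1.59 without any 1 of the P133 mice, each with an adjusted p of 0.0714. That is the smallest that 6 against 3 mice allow beside the p-values of the other comparisons, so these values bear on no call. The cause was not tested for the other changes. Adding 2 in place of 0.5 to the counts kept the ratio calls. Calls kept under all alternatives and without any 1 mouse were 5 of 9 members in Smyd3-ASO over control ASO, 13 of 20 in Smyd3-ASO, 19 of 24 in control-ASO and 12 of 18 in P133 over untreated, and 1 of 7 in Smyd3-ASO and 7 of 13 in control-ASO over P133.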
